A study of Mus musculus with 11 samples.

Results

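Axon guidance genes encode the cues that steer growing nerve fibres and blood vessels and the receptors that read them. The members were taken by a rule on gene symbols that itself uses no measured values, though earlier results of these data were known. The rule took all class 3 to 7 semaphorins, plexins, neuropilins, Eph receptors, ephrins, Robo1 to Robo3, Slits and Flrts found in the count table. Robo4 is in the table too, but the rule left it out and it was used only as an endothelial marker. They are 62 of its 48709 genes, made up of 20 semaphorins, 9 plexins, 2 neuropilins, 8 ephrins, 14 Eph receptors, 3 Slits, 3 Robo receptors and 3 Flrts. All 62 had reads in every library, from 579 to 480348 reads in total, and all passed the filter on low counts. They were measured by RNA-seq in muscle stem cells of Tg:Pax7-nGFP mice, in which Pax7 regulatory sequence drives a nuclear green fluorescent protein used for sorting. The mice were C57BL/6, and the cells came from pectoral, forelimb and hindlimb muscles. In T0 (3 libraries) the muscle was fixed in paraformaldehyde before the cells were taken out. In T3 (4 libraries) the cells went through the standard isolation and were fixed afterwards. T5 added 2 h at 37°C, and the submitters' texts place that step at different points, either on the dissected muscle or after isolation. Its 4 libraries fall under 2 letters, and libraries of 1 letter were added together, so that n was 3, 4 and 2. All groups carried the transgene and were fixed in 0.5% paraformaldehyde. T0 was fixed as tissue, for 1 h at 4°C, and T3 and T5 as sorted cells, for 30 min. The time, length and manner of fixation therefore cannot be told apart from the isolation. Animal ages and numbers, and whether replicates came from separate animals, are not given in the labels. The p-values therefore rest on how far these libraries spread, and part of that spread may be technical.

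Semaphorins are secreted or membrane-bound proteins that signal through plexins. The secreted class 3 members mostly need a neuropilin as well. Ephrins are held on the cell surface and meet Eph receptor tyrosine kinases on a neighbouring cell, and signals can run in both directions. Slits are secreted and bind Robo receptors, and Flrts are membrane proteins that bind Unc5 receptors and latrophilins. Muscle stem cells lie between the fibre and its basement membrane, close to vessels and motor nerves, and in this tissue Sema3a is known as a factor that stem cells release during regeneration.

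Each T0 library held 49078859 to 67251946 counted reads, each T3 library 52632553 to 72638711, and each T5 library 61837170 to 102347035. Levels are given as CPM, the count scaled to a common library size after TMM scaling. All 12 muscle stem cell markers were detected in every replicate, at 15.9 CPM (Cd34 in T5) or more, and from T0 to T3 5 of them rose and 4 fell. Pax7, the gene that marks these cells, stood at 3613 ± 719 CPM (SD, n = 3) in T0 and 315 ± 64.7 CPM (SD, n = 4) in T3. Among the 29 members called between T0 and T3, T0 replicate 3 was the T0 replicate nearest to T3 in 22. No matching share over all genes is given here. The counts over all members are also given without this replicate. Reads in families with little known expression outside sensory and epithelial tissue (1434 olfactory receptor, vomeronasal receptor and defensin genes) gave a background of 0.0161, 0.0181 and 0.0251 CPM per kb of gene span in T0 replicates 1, 2 and 3. In T3 it was 0.0212 to 0.0257, and in T5 it was 0.0258 in both replicates. The strand setting of the authors' counting is not given in the sources used here, so a member that overlaps another gene on either strand is uncertain. Of the 62 members, 37 overlap an annotated gene, and in 11 the overlapping gene held at least 10% as many reads as the member (Sema4c, Plxna1, Efnb2, Efna3, Efna4, Epha1, Epha10, Ephb1, Ephb4, Flrt1 and Flrt3). In bulk samples, fewer cells of a type and less RNA per cell cannot be told apart.

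Between T0 and T3 the members moved in both directions (edgeR quasi-likelihood test, Benjamini-Hochberg adjusted p under 0.05 over 31999 genes). Higher in T3 were 14 members, where 15% of all genes tested were called higher, and lower were 15, where 22.9% of all genes were called lower. The other 33 were not called. The median log2 fold change was 0.22 over the members and 0.05 over all genes. Scaling by upper quartile factors moved the median of all genes to 0.32 and the member counts to 22 higher and 12 lower, so the balance of directions depended on the scaling. Over all genes the same scaling moved 4807 higher and 7332 lower to 7159 and 5798. Without T0 replicate 3 the counts were 27 higher and 18 lower among the members, and 7080 higher and 8875 lower over all genes. Over the 25 members with no overlapping gene they were 7 higher and 6 lower. Families differed in their counts: semaphorins had 5 higher and 5 lower, plexins 2 higher and 4 lower, neuropilins 2 higher, ephrins 2 higher and 1 lower, and Eph receptors 1 higher and 4 lower. Robo receptors had 1 higher, Slits had none called, and Flrts had 1 higher and 1 lower. These family counts are with all replicates. Without T0 replicate 3, Epha3, Epha5, Epha6, Epha7, Ephb2, Plxna4, Robo2, Sema3c, Sema3e, Sema5a, Sema5b, Slit1 and Slit3 were called higher too. Flrt1, Plxnb2 and Sema6d were then called lower too. No difference between families was tested.

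**Figure D1:**
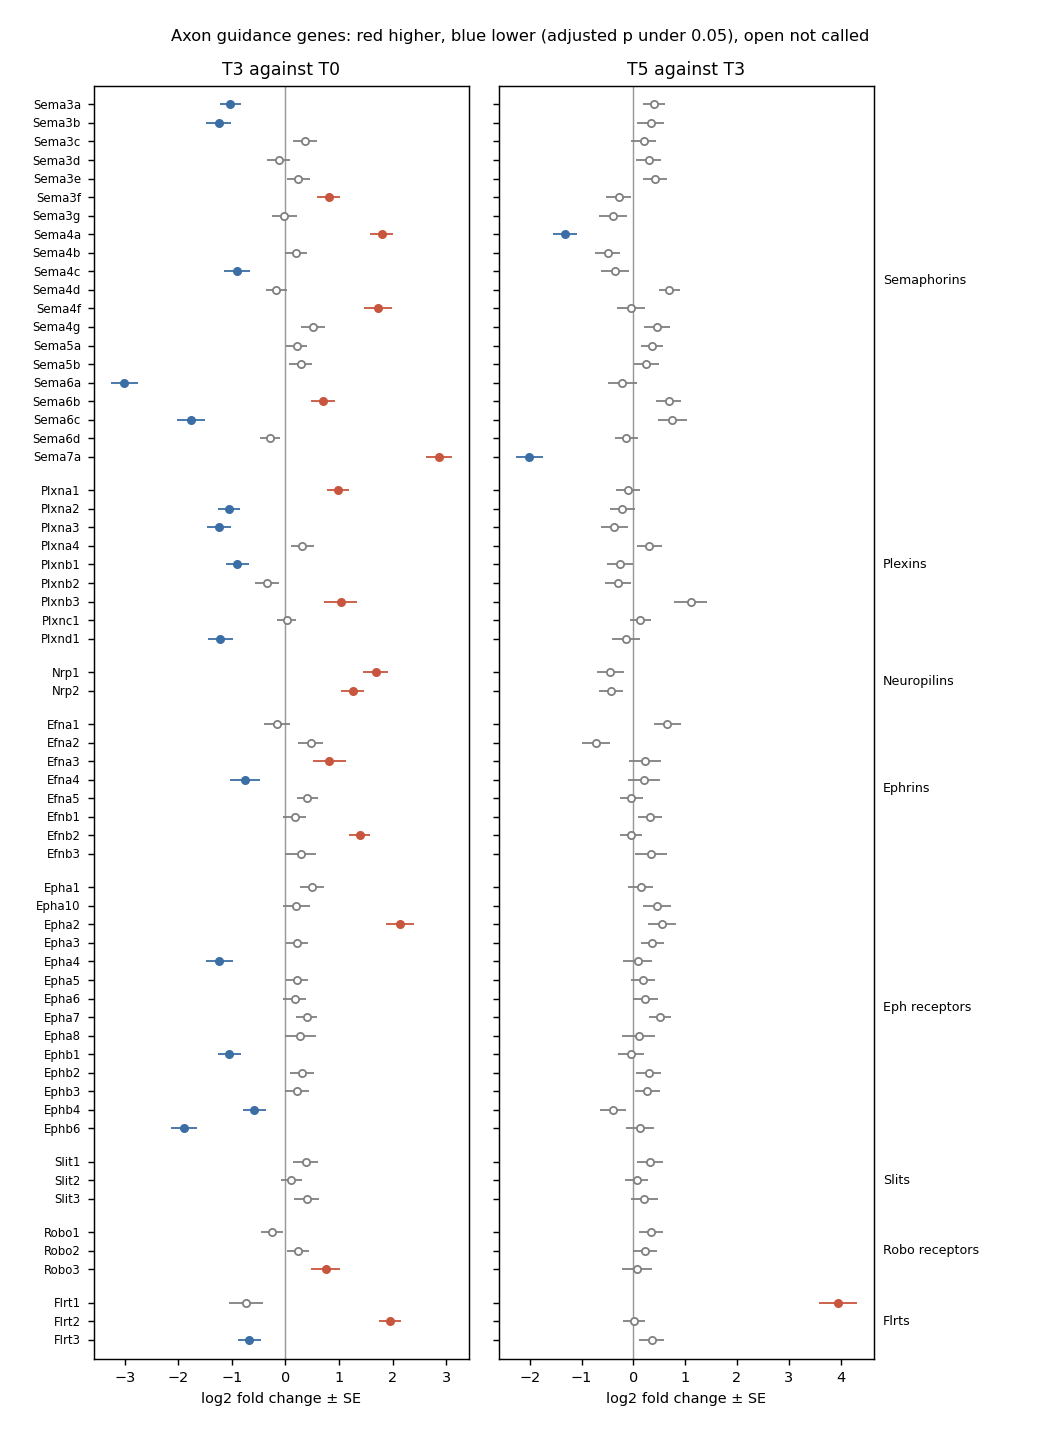
Log2 fold change (x axis, bars show the SE) of each of the 62 members (rows, grouped by family) for T3 against T0 and for T5 against T3; filled red points were called higher, filled blue points lower, and open points were not called. Sema6a, at -3.01, and Sema7a, at 2.86, are the extremes of the first panel, and Flrt1, at 3.95, stands alone on the right of the second.

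Sema6a had by far the highest level of any member per length, 95.5 CPM per kb of exon over all replicates, and the lowest fold change. It encodes a transmembrane semaphorin that binds class A plexins (ENSMUSG00000019647.16, chromosome 18, 47235598 to 47368870, minus strand, GRCm38). Its levels were 2632, 2240.1 and 1229 CPM in T0, 235, 218, 261 and 294 in T3, and 228 and 207 in T5. All T0 replicates were above all T3 and T5 replicates, and T0 replicate 3 was the lowest of T0. The mean fell from 2034 ± 724 CPM (SD, n = 3) to 252 ± 33.3 CPM (SD, n = 4), a log2 fold change of -3.01 ± 0.25 (SE), adjusted p = 4.27e-09. Sema6c, of the same class, had 18.7, 13.5 and 10.3 CPM in T0, 2.62, 3.67, 6.21 and 4.21 in T3, and 6.88 and 7.23 in T5, again with T0 above the rest (log2 fold change from T0 to T3 -1.76 ± 0.26 (SE), adjusted p = 6.51e-06). Sema6b moved the other way at a low level, with 2.71, 3.31 and 2.33 CPM in T0, 4.91, 5.18, 3.52 and 4.56 in T3, and 7.49 and 7.04 in T5. Its groups did not overlap, and it was called higher in T3 (0.71 ± 0.22 (SE), adjusted p = 0.0133) and in T5 (1.38 ± 0.25 (SE), adjusted p = 0.000134), each against T0. Sema6d was not called in T3 against T0 (-0.29).

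Sema7a had the highest log2 fold change of the members from T0 to T3. It encodes a semaphorin held on the membrane by a lipid anchor, whose known receptors are plexin C1 and beta 1 integrins (ENSMUSG00000038264.7, chromosome 9, 57940112 to 57962865, plus strand). Its levels were 2.79, 4.31 and 4.93 CPM in T0, 25.3, 32.1, 32.7 and 27.2 in T3, and 6.91 and 7.69 in T5. Every T3 replicate was above every T0 and T5 replicate, and the T5 replicates lay between. The log2 fold change was 2.86 ± 0.24 (SE), adjusted p = 3.89e-09 for T3 against T0, a 7.29-fold rise, and -2.01 ± 0.26 (SE), adjusted p = 6.08e-05 for T5 against T3. Sema4a, a transmembrane semaphorin known from immune cells and vessels (ENSMUSG00000028064.17, chromosome 3, 88435959 to 88461182, minus strand), had the same order of groups. Its levels were 2.90, 3.19 and 4.05 CPM in T0, 10.99, 12.6, 12.8 and 10.9 in T3, and 4.51 and 4.95 in T5, with no overlap between T3 and either other group. It rose by 1.80 ± 0.21 (SE), adjusted p = 4.16e-07 on the log2 scale from T0 to T3 and its log2 fold change from T3 to T5 was -1.32 ± 0.24 (SE), adjusted p = 0.00252. That fall was lost without T5 replicate A (adjusted p = 0.166) or B (adjusted p = 0.102). In T5 against T0 the log2 fold change was 0.86 ± 0.25 (SE), adjusted p = 0.00988 for Sema7a and 0.48 ± 0.24 (SE), adjusted p = 0.126 for Sema4a. Neither side of the threshold was stable there: the call of Sema7a was lost without T5 replicate B and with T5 and T0 alone in the fit, and Sema4a was called higher without T0 replicate 3, with upper quartile factors and with separate T5 libraries.

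A rise in T3 and a lower level in T5 was also measured for some endothelial markers. The summed level of the 15 was 324 to 393 CPM in T0 and 550 to 648 CPM in T3, with T5 at 334 to 336 CPM, and none was at 0 in every replicate. A large part of it was Tek, which was not called in any comparison. Tek had 200, 148 and 118 CPM in T0, 228, 185, 204 and 292 in T3, and 143 and 134 in T5. In T3 against T0, 6 of the 15 rose and none fell, and in T5 against T3, 5 of the 15 fell and none rose. Over all genes, 15% were called higher and 22.9% lower from T0 to T3, and 1.28% and 0.888% from T3 to T5. Pecam1, an adhesion protein of endothelial cells, averaged 25.4 ± 7.68 CPM (SD, n = 3) in T0, 65.8 ± 3.13 (n = 4) in T3 and 33.8 ± 1.58 (n = 2) in T5. Of the myofibre markers, 11 of 13 rose and 1 (Actn3) fell from T0 to T3, and 6 fell and none rose from T3 to T5. From T0 to T5, 4 were higher (Mb, Tnnt3, Ttn and Ckm) and 1 lower (Actn3). Their summed level was 123 to 136 CPM in T0 and 158 to 223 CPM in T3, with T5 at 139 to 141 CPM. Large parts of it were Actn3, with means of 55.1, 26.4 and 17.2 CPM in T0, T3 and T5, and Ttn, with 47.5, 80.0 and 80.3. From T0 to T3 the other lists had 3 higher and 2 lower of 12 (Schwann cell), 3 and 2 of 11 (fibro-adipogenic), 4 and 0 of 10 (macrophage), 1 and 4 of 9 (pericyte and smooth muscle) and 1 and 0 of 7 (neuron). The part of these cell types in the values of Sema7a and Sema4a was not tested.

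Because the pair moved together, and both neuropilins rose, the bases before their starts are shown, from RefSeq on GRCm38.p6. Capitals mark an E-box, spelled CANNTG. AP-1, spelled TGANTCA, was searched on both strands too and found in none of these stretches, and the letters of the motifs do not overlap each other here. Sema4a has several annotated starts, and the stretch shown was picked because an E-box was found in it. Positions count back from the start of transcription, and bases that fall in an exon of another transcript were left out, which shortens the stretch of Nrp2. The Sema4a and Nrp1 stretches lie inside the span that GENCODE gives their gene, between exons.
Sema7a, chr9:57939862-57940111, plus strand, -250 to -1: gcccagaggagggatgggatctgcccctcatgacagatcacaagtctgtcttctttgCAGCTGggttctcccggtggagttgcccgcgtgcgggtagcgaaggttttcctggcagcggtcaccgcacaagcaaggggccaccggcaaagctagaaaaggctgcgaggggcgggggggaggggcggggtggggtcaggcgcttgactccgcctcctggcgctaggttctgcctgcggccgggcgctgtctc
Sema4a, chr3:88459102-88459351, minus strand, -250 to -1: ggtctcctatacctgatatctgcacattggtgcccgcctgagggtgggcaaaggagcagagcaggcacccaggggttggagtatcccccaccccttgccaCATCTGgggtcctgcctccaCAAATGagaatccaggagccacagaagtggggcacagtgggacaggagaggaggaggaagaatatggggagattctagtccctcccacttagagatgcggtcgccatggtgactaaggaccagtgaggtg
Nrp1, chr8:128358823-128359072, plus strand, -250 to -1: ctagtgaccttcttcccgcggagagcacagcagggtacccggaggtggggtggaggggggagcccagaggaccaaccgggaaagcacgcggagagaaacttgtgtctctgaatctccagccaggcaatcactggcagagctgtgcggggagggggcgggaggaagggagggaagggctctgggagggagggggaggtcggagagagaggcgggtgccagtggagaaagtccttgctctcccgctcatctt
Nrp2, chr1:62703067-62703284, plus strand, -250 to -33: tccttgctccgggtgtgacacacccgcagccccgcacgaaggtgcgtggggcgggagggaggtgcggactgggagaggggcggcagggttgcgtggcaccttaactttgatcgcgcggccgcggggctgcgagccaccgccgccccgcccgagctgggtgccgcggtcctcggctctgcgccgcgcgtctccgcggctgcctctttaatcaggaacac
Sema7a has 1 E-box at -193, this Sema4a stretch has 2 at -150 and -130, and neither neuropilin stretch has one. Over the 250 bases before each start, 66.22% of all 32851 RefSeq promoters hold an E-box and 6.75% an AP-1 match. Among the 70 promoters of the 54 members found there, 51.43% hold an E-box and 4.29% an AP-1 match. The 17 promoters of members higher in T3 had an AP-1 match in 5.88% and an E-box in 47.06%, and the 15 of members lower in T3 in 6.67% and 40%. The median GC content was 64.0% in the member promoters and 52.4% in all promoters. A match is a run of letters, not a measured site.

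Other transmembrane class 4 semaphorins moved in both directions. Sema4f had 1.04, 1.91 and 2.60 CPM in T0, 6.07, 6.91, 5.01 and 6.76 in T3, and 6.35 and 5.66 in T5, with T0 below the other groups (log2 fold change T3 against T0 1.73 ± 0.26 (SE), adjusted p = 1.2e-05). Sema4c, a ligand of plexin B2, had 33.6, 21.3 and 16.4 CPM in T0, 10.50, 15.1, 14.9 and 10.2 in T3, and 9.93 and 10.01 in T5, with T0 above the other groups (log2 fold change T3 against T0 -0.90 ± 0.23 (SE), adjusted p = 0.00323), but it overlaps an RNA on the opposite strand with reads of its own. Sema4b, Sema4d (a ligand of plexin B1) and Sema4g were not called in T3 against T0. Sema4g was low, at 1.82, 1.53 and 1.65 CPM in T0, 2.74, 2.09, 2.41 and 2.26 in T3 and 2.80 and 3.71 in T5, and was called in T5 against T0 (0.97 ± 0.26 (SE), adjusted p = 0.00524). That call was lost without T5 replicate B (adjusted p = 0.164).

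Among the secreted class 3 semaphorins, 2 of 7 fell, 1 rose and 4 were not called. Sema3a, a ligand of Nrp1, had 53.4, 69.6 and 55.7 CPM in T0, 32.7, 30.6, 28.97 and 24.8 in T3, and 37.8 and 39.1 in T5. T0 was above the other groups, and the log2 fold change from T0 to T3 was -1.03 ± 0.19 (SE), adjusted p = 0.000134. Sema3b had 29.5, 33.3 and 17.96 CPM in T0, 11.5, 8.49, 13.5 and 11.8 in T3, and 17.1 and 11.5 in T5, and fell by the same comparison (-1.25 ± 0.23 (SE), adjusted p = 0.000133). Sema3f, a ligand of Nrp2, rose from 3.32 to 5.84 CPM on average (0.81 ± 0.21 (SE), adjusted p = 0.00382). Sema3c, Sema3d, Sema3e and Sema3g, and both class 5 semaphorins, were not called in T3 against T0.

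Plexins, the signalling receptors of the semaphorins, fell in 4 of 9 and rose in 2. Plxnd1, the plexin of developing vessels and a receptor of Sema3e, had the highest level per length of the family, 21.1 CPM per kb of exon. Its levels were 324, 267 and 164 CPM in T0, 90.8, 90.8, 137 and 114 in T3, and 96.95 and 98.7 in T5. T0 lay above the other groups, with T0 replicate 3 again the lowest of T0, and the log2 fold change from T0 to T3 was -1.22 ± 0.23 (SE), adjusted p = 0.000164. Plxna2, a receptor of Sema6a, had 665, 454 and 446 CPM in T0, 249, 232, 263 and 257 in T3, and 228 and 205 in T5. It fell to 2.08-fold lower in T3 (-1.06 ± 0.21 (SE), adjusted p = 0.000221) and both T5 replicates were just below all T3 replicates. Plxna3 had 19.3, 18.6 and 11.2 CPM in T0, 6.05, 7.57, 8.25 and 5.73 in T3, and 5.07 and 5.65 in T5, with T0 above T3 and T5 (-1.25 ± 0.22 (SE), adjusted p = 7.51e-05). Plxnb1 had 23.7, 17.3 and 14.1 CPM in T0, 8.10, 9.51, 11.8 and 9.86 in T3, and 7.98 and 8.47 in T5, and was lower in T3 (-0.90 ± 0.21 (SE), adjusted p = 0.00144).

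Plxna1 and Plxnb3 went the other way. Plxna1, a partner of neuropilins in class 3 semaphorin receptors, had 25.1, 24.7 and 16.6 CPM in T0, 41.2, 50.4, 45.1 and 38.4 in T3, and 39.5 and 41.8 in T5. All T3 and T5 replicates were above all T0 replicates (0.98 ± 0.21 (SE), adjusted p = 0.000487 on the log2 scale for T3 against T0). It overlaps an RNA on the opposite strand that held 35.2 to 45.6% as many reads as Plxna1. Plxnb3 was low, with 0.519, 0.944 and 1.54 CPM in T0, 2.63, 2.27, 1.93 and 1.52 in T3, and 5.54 and 3.43 in T5. Its T0 and T3 replicates overlapped although it was called (1.03 ± 0.31 (SE), adjusted p = 0.01), and both T5 replicates were above all others (T5 against T0 2.13 ± 0.35 (SE), adjusted p = 3.77e-05; T5 against T3 1.10 ± 0.31 (SE), adjusted p = 0.0728). Plxna4, Plxnb2 and Plxnc1, the plexin that binds Sema7a, were not called in any comparison. Plxnc1 averaged 20.1, 20.4 and 22.4 CPM in T0, T3 and T5.

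Both neuropilins, the co-receptors of class 3 semaphorins and of vascular endothelial growth factor, rose. Nrp1 (ENSMUSG00000025810.9, chromosome 8, 128358604 to 128503363, plus strand) had 20.8, 21.1 and 38.4 CPM in T0, 93.4, 74.2, 92.1 and 85.2 in T3, and 62.6 and 64.4 in T5. All T3 replicates were above T5, and T5 above T0, where replicate 3 was the highest. The log2 fold change was 1.69 ± 0.23 (SE), adjusted p = 3.21e-06 from T0 to T3 and -0.44 ± 0.25 (SE), adjusted p = 0.484 from T3 to T5. Nrp2 (ENSMUSG00000025969.15, chromosome 1, 62703285 to 62818695, plus strand) had 9.87, 10.9 and 15.2 CPM in T0, 31.6, 25.9, 32.3 and 24.9 in T3, and 21.3 and 21.4 in T5, in the same order of groups. Its log2 fold change was 1.26 ± 0.21 (SE), adjusted p = 4e-05 from T0 to T3 and -0.43 ± 0.23 (SE), adjusted p = 0.46 from T3 to T5. Both neuropilins are also known from endothelial cells, and 6 of 15 markers of those cells rose in T3 as given above. The part of those cells in these values was not tested.

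**Figure D2:**
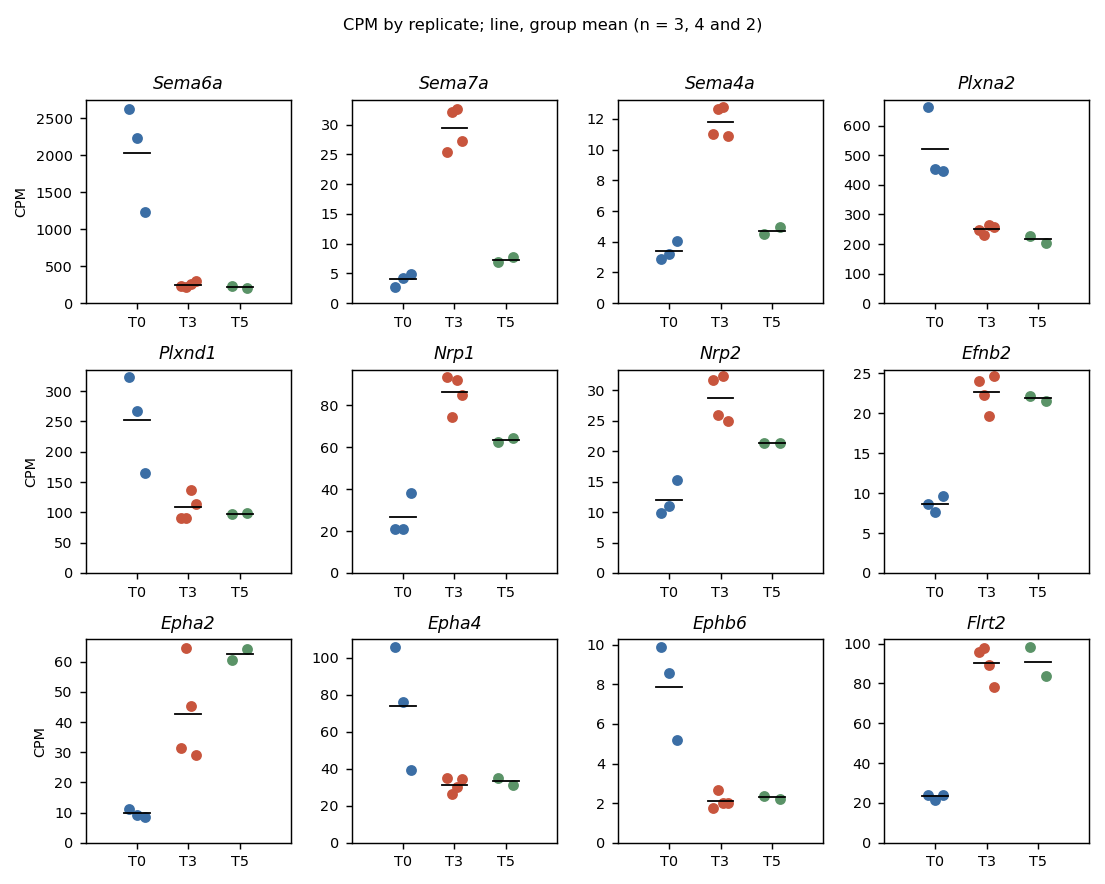
CPM (y axis, linear from 0, a scale of its own in each panel) of 12 members in each replicate of T0, T3 and T5; points are replicates and lines are group means. Sema6a, Plxna2, Plxnd1, Epha4 and Ephb6 are highest in T0, while Sema7a and Sema4a are highest in T3, with T5 replicates of Sema7a at 6.91 and 7.69 CPM.

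Among the ephrins, Efnb2, the transmembrane ligand of Ephb4 and known as a mark of arteries, rose. It had 8.63, 7.64 and 9.68 CPM in T0, 24, 22.3, 19.6 and 24.6 in T3, and 22.2 and 21.6 in T5, with every T3 and T5 replicate above every T0 replicate (1.39 ± 0.20 (SE), adjusted p = 5.55e-06 on the log2 scale for T3 against T0). Efna5, a lipid-anchored ligand of EphA receptors, had the highest level per length of the ephrins, 20.5 CPM per kb of exon. It had 76.02, 62.4 and 66.6 CPM in T0, 69.9, 93.8, 99.9 and 99.3 in T3, and 89.2 and 86.9 in T5, and was not called in any comparison. With upper quartile factors it was called higher in T3 (adjusted p = 0.00200) and in T5 (adjusted p = 0.00567), each against T0. With T5 and T0 alone in the fit it was also called higher in T5 (log2 fold change 0.56, adjusted p = 0.0306). Efna3 and Efna4 lie next to each other on chromosome 3 and moved in opposite directions at about 1 CPM. Efna3 had 0.433, 0.601 and 0.694 CPM in T0, 0.836, 1.38, 1.02 and 0.877 in T3, and 1.04 and 1.38 in T5 (0.82 ± 0.30 (SE), adjusted p = 0.033 from T0 to T3), and Efna4 had 1.34, 0.841 and 1.03 CPM in T0, 0.727, 0.630, 0.586 and 0.584 in T3, and 0.706 and 0.756 in T5 (-0.76 ± 0.28 (SE), adjusted p = 0.0379). Both calls were lost in several settings, and both overlap other transcripts. Efna1, Efna2, Efnb1 and Efnb3 were not called in any comparison.

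Among the Eph receptors, Epha2 was alone in being called higher in T3 with all replicates and TMM scaling. Without T0 replicate 3, Epha3, Epha5, Epha6, Epha7 and Ephb2 were called higher too. Upper quartile factors added Epha1, Epha7 and Ephb3, and leaving out T0 replicate 1 added Epha1. Epha2, best known from epithelial cells, had 11.3, 9.08 and 8.69 CPM in T0, 31.3, 64.6, 45.4 and 28.97 in T3, and 60.5 and 64.3 in T5. Every T3 and T5 replicate was above every T0 replicate, the T3 replicates were widely spread, and T5 lay near the top of their range. The log2 fold change was 2.14 ± 0.26 (SE), adjusted p = 6.01e-07 from T0 to T3, a 4.39-fold rise, and 2.69 ± 0.29 (SE), adjusted p = 3.05e-07 from T0 to T5. Epha4, a receptor of many ephrins of both classes, fell. It had 106, 75.9 and 39.2 CPM in T0, 34.7, 26.3, 30.04 and 34.2 in T3, and 35.1 and 31.3 in T5, with T0 above the other groups and T0 replicate 3 nearest to them (-1.23 ± 0.25 (SE), adjusted p = 0.000285 from T0 to T3).

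Of the 5 EphB receptors, 3 were called lower, 1 of them (Ephb4) in a minority of the alternatives, and none higher. Ephb2 was called higher without T0 replicate 3, and Ephb3 with upper quartile factors. Ephb1 had the highest level per length of the Eph receptors, 13.5 CPM per kb of exon. It had 153, 97.3 and 185 CPM in T0, 70.6, 59.9, 84.1 and 66.4 in T3, and 68.9 and 66.8 in T5, and its log2 fold change from T0 to T3 was -1.05 ± 0.22 (SE), adjusted p = 0.000439. It holds several small annotated genes within its span. Ephb6, a receptor whose kinase is inactive, had 9.87, 8.58 and 5.18 CPM in T0, 1.76, 2.66, 1.99 and 2.03 in T3, and 2.38 and 2.22 in T5. It fell to 3.72-fold lower in T3 (-1.90 ± 0.24 (SE), adjusted p = 9.57e-07) and the T5 replicates lay within the T3 range. Ephb4, the receptor of Efnb2, was also lower in T3 (-0.58 ± 0.21 (SE), adjusted p = 0.0342), but its replicates overlapped between the groups, its end overlaps that of Zan, and the call was lost in 9 of 14 alternatives, among them DESeq2, RLE and upper quartile factors and leaving out T0 replicate 1 or 2 or T3 replicate 1 or 4. The other 9 Eph receptors were not called from T0 to T3, with log2 fold changes from 0.17 (Epha6) to 0.50 (Epha1). Epha7 was called in T5 against T0 (0.92 ± 0.23 (SE), adjusted p = 0.00261), from 6.21, 6.30 and 7.98 CPM in T0 through 9.32, 8.49, 9.16 and 9.08 in T3 to 12.96 and 12.9 in T5.

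Of the 3 Slits and 3 Robo receptors, 1 was called from T0 to T3. Robo1, the main Slit receptor here by level per length (17.8 CPM per kb of exon), had 357, 309 and 273 CPM in T0, 302, 206, 254 and 285 in T3, and 335 and 324 in T5. T0 overlapped both other groups, and it was not called in any comparison (-0.26 ± 0.21 (SE), adjusted p = 0.376 from T0 to T3). Slit3, a secreted ligand of the Robo receptors, had 24.2, 28.8 and 50.8 CPM in T0, 48.1, 40.5, 56.4 and 37.1 in T3, and 52.4 and 53.1 in T5, and was not called either (0.40 ± 0.24 (SE), adjusted p = 0.216). T0 replicate 3 lay within the T3 range, and without it the log2 fold change was 0.78 (adjusted p = 0.00217). That replicate had the highest background of T0. Per kb of gene span, Slit3 stood at only 2.90, 3.36 and 3.48 times the background in T0, T3 and T5. Robo3 was called higher in T3 (0.75 ± 0.27 (SE), adjusted p = 0.0336) at 1.05 to 1.79 CPM on average, with overlapping replicates, and this call was lost in 5 of 14 alternatives, each without 1 replicate (T0 1 or 2, or T3 1, 2 or 3). Slit1 was called in T5 against T0 (0.70 ± 0.26 (SE), adjusted p = 0.0409), a call lost in 7 of 11 alternatives, among them DESeq2 and leaving out either T5 replicate or T0 replicate 1 or 2. Slit2 and Robo2 were not called. Without T0 replicate 3, Slit1 and Robo2 were called higher in T3 against T0, and with upper quartile factors Slit2 was.

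Flrt2, which as a membrane protein binds Unc5 receptors, rose. It had 24.2, 21.6 and 24 CPM in T0, 95.7, 97.8, 89.1 and 78.1 in T3, and 98.3 and 83.5 in T5, with no overlap between T0 and the other groups. The log2 fold change was 1.96 ± 0.20 (SE), adjusted p = 6.78e-08 from T0 to T3, a 3.88-fold rise, and 0.01 ± 0.21 (SE), adjusted p = 0.987 from T3 to T5. Flrt3, at 2.92 CPM on average in T0 and 1.83 in T3, was called lower (-0.67 ± 0.22 (SE), adjusted p = 0.0162), but it lies inside Macrod2, which held far more reads.

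Flrt1 had the largest log2 change of any member from T3 to T5. It had 24.8, 24.6 and 14.01 CPM in T0, 6.60, 23.1, 7.19 and 13.6 in T3, and 173 and 217 in T5. T0 and T3 overlapped, and both T5 replicates were above all others, with a log2 fold change of 3.95 ± 0.36 (SE), adjusted p = 5.03e-07 from T3 to T5 and 3.20 ± 0.39 (SE), adjusted p = 1.28e-06 from T0 to T5. Flrt1 lies on the minus strand of chromosome 19 (7092001 to 7105729) inside Macrod1 (7056810 to 7198057, plus strand), of which it spans 9.72%. Its count was 13.7 to 20.8% of that of Macrod1 in each of the 11 libraries, and Macrod1 rose from 48.2, 112, 45.6 and 80.7 CPM in T3 to 876 and 1074 in T5. Without the strand setting, reads of Flrt1 and of its host cannot be told apart.

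**Figure D3:**
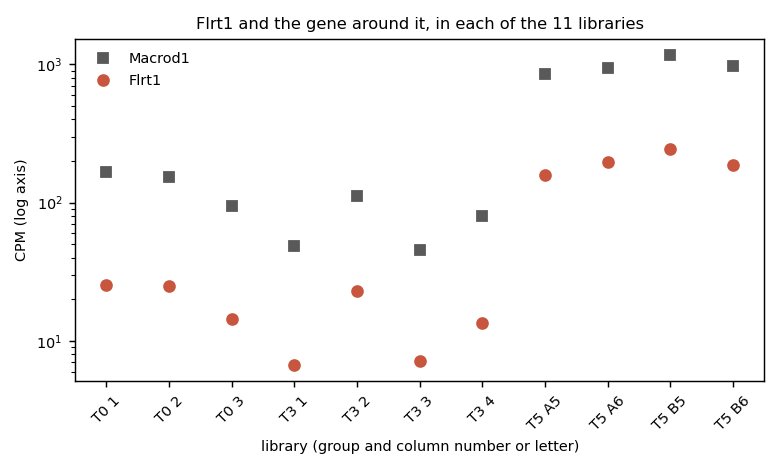
CPM (log axis) of Flrt1 and of Macrod1, the gene around it, in each of the 11 libraries as deposited. Flrt1 follows Macrod1 in every library, at 13.7 to 20.8% of its count, and both are highest in the 4 T5 libraries.

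Between T3 and T5 only these 3 members were called: Flrt1 higher, where 1.28% of all genes were called higher, and Sema7a and Sema4a lower, where 0.888% were called lower. Among the 59 others the log2 fold change ran from -0.72 (Efna2) to 1.10 (Plxnb3). Fitting T3 and T5 alone called 5 higher and 3 lower, and keeping the 4 T5 libraries separate called 6 higher and 3 lower. With T5 at 2 replicates, a call missed here does not show that a level stayed the same.

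Between T0 and T5 higher were 17 members, beside 13.2% of all genes, and lower were 13, beside 22.5% of all genes. The comparison shares its T0 replicates with T3 against T0 and its T5 replicates with T5 against T3. Called in the same direction in T3 and in T5, each against T0, were 25 members. Called only in T5 against T0 were Flrt1, Epha7, Sema3e, Sema4g and Slit1, and only in T3 against T0 Sema4a, Sema3f, Efna4 and Flrt3. Of these 9, Flrt1 and Sema4a were also called in T5 against T3, and for the other 7 a difference between T3 and T5 was not shown. Sema3e, like Slit1, lost its call in 7 of 11 alternatives. No call in any comparison was given to 28 members. For this count and for the 25 above, no matching share over all genes is given here, so neither is read as particular to the members. Upper quartile factors gave 36 members higher and 9 lower, beside a move over all genes from 4229 higher and 7184 lower to 7144 and 5626. Without T0 replicate 3 there were 33 members higher and 16 lower, and 8280 and 9276 over all genes. Without T5 replicate B, 9 were higher.

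Many of the lowest members per kb of gene span were long genes. A span includes introns, so this measure and the level per kb of exon can order members differently. Over all replicates, Epha6 had 7.92 CPM per kb of exon and 1.95 times the background by span, and Epha2 had 7.71 and 54.9. Per kb of gene span, 19 members had less than 5 times the level of the olfactory, vomeronasal and defensin families, a limit set after the values were seen, with a median span of 206 kb against 25.2 kb in the 43 others. Epha5 stood at 1.80, 1.80 and 1.83 times the background in T0, T3 and T5, and Epha6, a receptor of ephrin-A ligands, at 1.96, 1.91 and 2.00. Robo2 stood at 1.95, 1.98 and 2.06. By this measure the groups lay close together for these 3, while their mean CPM was highest in T5. Without T0 replicate 3, the T0 replicate with the highest background, 13 more members were called higher in T3, and all 13 were among these 19. Sema7a, by contrast, stood at 8.91, 56.6 and 12.4 times the background, and Nrp1 at 9.19, 25.9 and 16.98. Of the 19 low members, 2 were called higher (Efna3 and Robo3) and 1 lower (Sema3a) in T3 against T0. In T5 against T0, 5 were called higher (Efna3, Epha7, Robo3, Sema3e and Slit1) and 1 lower (Sema3a). The part of the background in the calls of the low members was not tested.

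**Figure D4:**
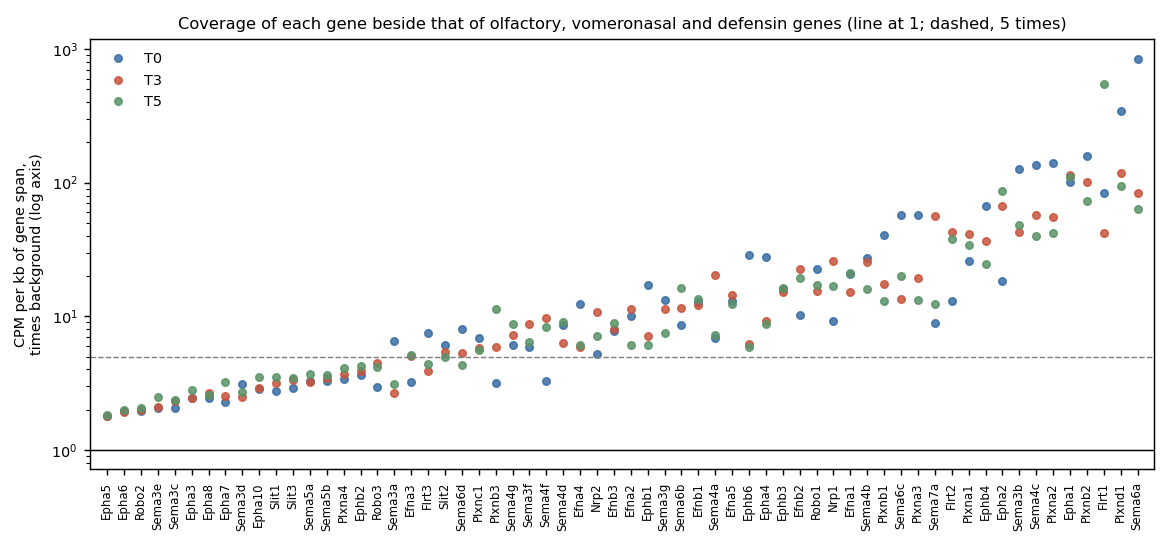
Level per kb of gene span divided by that of the olfactory, vomeronasal and defensin families in the same group (y axis, log) for all 62 members, ordered from lowest to highest mean; blue, red and green points are T0, T3 and T5, the solid line is 1 time and the dashed line 5 times the background. The 19 members on the left lie between 1.81 and 4.45 times the background on average, and Sema6a lies at 842 in T0.

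Genes that act with these ligands and receptors were counted from lists. Of all genes tested, 15% were called higher and 22.9% lower from T0 to T3. The shares were 1.28% and 0.888% from T3 to T5, and 13.2% and 22.5% from T0 to T5. No difference between a list and these shares was tested. Of 17 semaphorin and plexin transducers, 5 rose and 5 fell from T0 to T3. Mical2, an enzyme that oxidises actin, rose by 2.5 ± 0.24 (SE), adjusted p = 1.97e-08, and Rnd1, a small GTPase that binds plexins, by 2.86 ± 0.33 (SE), adjusted p = 3.24e-07, both on the log2 scale. Of 15 Eph and ephrin transducers, 3 rose and 3 fell. Pak1, a kinase of the cytoskeleton, rose by 2.49 ± 0.22 (SE), adjusted p = 8.35e-09, and Abl2, a tyrosine kinase, by 1.32 ± 0.22 (SE), adjusted p = 3.75e-05. Of 10 Slit and Robo transducers, 4 rose and 2 fell. Dag1, the dystroglycan to which Slits bind, had a log2 fold change of -1.63 ± 0.23 (SE), adjusted p = 4.96e-06, and Myo9b, an unconventional myosin, of 1.47 ± 0.22 (SE), adjusted p = 1.06e-05. Of 16 netrin, RGM and Flrt partners, 2 rose and 5 fell. Ntn5, a netrin, had a log2 fold change of -2.35 ± 0.22 (SE), adjusted p = 1.83e-08, and Unc5b, a receptor of netrins and Flrts, of 1.91 ± 0.21 (SE), adjusted p = 1.99e-07. From T3 to T5, 2 of the 16 partners fell and no gene of the other 3 lists was called. They were Rgmb (-1.65 ± 0.25 (SE), adjusted p = 0.000316), a ligand of neogenin, and Ntn4 (-0.90 ± 0.24 (SE), adjusted p = 0.0473), a netrin of basement membranes. From T0 to T5 the 4 lists had 6 higher and 4 lower, 4 higher and 3 lower, 4 higher and 2 lower, and 1 higher and 5 lower, in that order.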

How the data were processed

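Total RNA of fixed, sorted muscle stem cells was sequenced as directional libraries with 65-bp single-end reads, per the labels' protocols. The deposited values are read counts per gene, which the authors made with STAR 2.5.0a and featureCounts 1.4.6-p3 on GRCm38, per the submitters' processing notes; those notes also name R 3.3.1 and DESeq2 1.12.3. The annotation release and strand setting are not given in the sources used here. Gene symbols came from GENCODE vM21 (48349 of 48709 identifiers matched). Counts were taken as deposited, T5 libraries of 1 letter were added, and columns, whose numbers could not be tied to the titles' letters, name the replicates.

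All 3 groups entered 1 edgeR 4.0.16 quasi-likelihood fit (R 4.3.3, TMM scaling, filterByExpr, no covariate), tested on simulated data, with two-sided tests and Benjamini-Hochberg adjustment over 31999 genes at 0.05. Each SE was derived from the size of the log2 fold change and the square root of its F statistic. DESeq2 1.42.0 and the other alternatives are in the closing section. The members and lists were chosen with earlier results of these data known. Members given per replicate were, in each comparison, the 10 highest and 10 lowest called members with separate groups and a mean of at least 1 CPM, the member of each family with the highest level per kb of exon, and called members against their family's majority. From each list of related genes, up to 2 called genes with the smallest p were named. Motifs were searched in RefSeq promoters (GRCm38.p6). Same-numbered T0 and T3 replicates had correlated deviations of -0.168, 0.21 and 0.22, so the numbers were not taken to pair samples.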

Additional observations from a re-analysis of the deposited data

How the results depend on the processing

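For the 31 members picked by the naming rule, 61 fold changes were recomputed under 759 alternatives: 713 kept direction and side of the threshold, 27 lost a call, 11 gained one and 8 changed sign. The 8 were never called: Robo1 in T3 against T0 (upper quartile factors, 0.0547) and in T5 against T0 (RLE factors, -0.0153; DESeq2, -0.0300; without single replicates, -0.0114 to 0.175), Efna5 in T5 against T3 (upper quartile factors, 0.0106; without single replicates, -0.149 to 0.00611, above 0 without T3 replicate 3 or 4) and Ephb1 in T5 against T3 (without single replicates, -0.119 to 0.0478). Counting every member, calls that held in all alternatives were 11 of 14 higher and 12 of 15 lower in T3 against T0, 1 of 1 and 1 of 2 in T5 against T3, and 9 of 17 and 7 of 13 in T5 against T0. Lost at least once were Efna3, Robo3, Sema6b (replicate block alone), Efna4, Ephb4 and Flrt3 in the first, Sema4a in the second, and Efna3, Nrp2, Plxna1, Robo3, Sema3e, Sema4g, Sema7a, Slit1, Epha4, Ephb1, Ephb4, Sema3a, Sema3b and Sema6c in the third.

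Members higher in T3 against T0 numbered 14; upper quartile factors gave 22, and leaving out single replicates gave 12 to 27. In T5 against T0, 17 were higher; upper quartile factors gave 36, separate T5 libraries 29, and leaving out single replicates 9 to 33. In T5 against T3, 1 was higher; upper quartile factors and no filter on low counts each gave 2, separate T5 libraries 6 and a fit of T3 and T5 alone 5. The 2 lower there became 1 to 2 without single replicates. The 25 members without an overlapping gene had 7 higher and 6 lower in T3 against T0, 0 higher and 1 lower in T5 against T3, and 8 higher and 6 lower in T5 against T0.

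Over all genes in T5 against T3, 411 higher became 268 with RLE factors, 695 with no filter, 923 with separate T5 libraries, 1348 with those groups alone, and 143 to 346 without single replicates; 284 lower became 456 with upper quartile factors, 689 with DESeq2, 518, 1199 and 1645 in the same order, and 41 to 246 without single replicates. In T5 against T0, 4229 higher became 7144 with upper quartile factors and 2531 to 8280 without single replicates. Calls lower made up 60.4% of all calls in T3 against T0 and 62.9% in T5 against T0, and 44.7% and 44.1% with upper quartile factors; for members these were 51.7% and 43.3%, and 35.3% and 20%. In T5 against T3 they were 40.9% over all genes and 67.4% with DESeq2. The cause was not tested.

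With the replicate number as a block, T3 against T0 had 12 members higher and 13 lower, and T0 replicates 1 and 3 did not correlate best with their own number; T5 columns carry letters and share no number.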
